A study of Mus musculus with 10 samples.

Results

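The cultured mouse mammary tumour lines 4T1 and 4T07, 2 libraries each, were compared at intronic polyadenylation (IPA) sites and at the last exons of the genes that carry them. Both lines belong to the 4T1 family, both are labelled as invasive tumor cells, and the series design counts both as metastatic. They were set in the study against 67NR and 168FARN, which it counts as non-metastatic, and not against each other. The members were all 520 distinct sites, in 449 genes, listed in any of the 8 deposited tables that compare a metastatic with a non-metastatic line, out of 2074 sites in the 10 tables of the series. Last-exon reads of both lines were given for 125 genes. Of the 10 libraries of the series, the 2 of 67NR, the 2 of 168FARN and the 2 of 4T1 cells given a U1 antisense oligonucleotide entered no test between the lines.

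All 4 libraries came from cells grown in serum-containing medium. The series design speaks of mock-transfected 4T1 cells, while the labels of the 4T1 libraries name no treatment. No label gives a passage, a clone or a separate culture for the 2 libraries of a line, and so a p-value here reflects library-to-library spread alone, which may be of technical origin. Each line is 1 cell line, and a difference between them is a difference between these lines. Of the 27 marker genes of epithelial, mesenchymal, macrophage, lymphocyte and endothelial cells, 2 had last-exon reads for both lines. Spint2, an epithelial inhibitor of membrane proteases, had 730 to 965 reads in every library. Twist2, a mesenchymal transcription factor, had 2 reads in 4T1 library 1 and 0 in the other 3 libraries. The remaining marker genes were not assessed here.

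Most mammalian transcripts are cleaved and polyadenylated in their last exon. A transcript can also end at a signal inside an intron, which yields a shorter messenger RNA, and often a protein that lacks its carboxyl end or no protein at all. U1 particles bound near 5' splice sites are known to hold back such early ends, and splicing of the intron competes with them. Reads at a site can therefore differ because the gene is transcribed more, or because a larger share of its transcripts ends in the intron. Site reads were set beside last-exon reads for this reason: usage is the percentage of site reads among the site and last-exon reads of a library. Usage is a ratio of counted 3' ends. Whether transcription, the choice of end or the stability of either RNA differed was not tested.

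The peak-list totals of 4T1 were 2499475 and 2795040 reads, and those of 4T07 were 2753926 and 3106253. All scaling uses these totals, and RPM is used for the usual reads per-million unit on them. Table reads are whole reads recovered from the authors' normalized signal. Each transcript gives 1 counted 3' end whatever its length, so values are not divided by length. In bulk RNA, fewer transcribing cells and less RNA per cell cannot be told apart. The tables gave site reads in both lines at 125 sites, for 4T07 alone at 338 and for 4T1 alone at 57. Every site was listed because one of these same libraries differed from a non-metastatic line, so the sites are not a neutral sample of the transcriptome.

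Last exons differed widely. Of 121 genes with at least 10 last-exon reads over the 4 libraries, 57 differed between the lines, or 47.1% (edgeR quasi-likelihood test, Benjamini-Hochberg adjusted p under 0.05). In 27 of them 4T1 was higher (22.3%) and in 30 of them 4T07 was higher (24.8%). The median log2 difference over the 121 genes was 0.11. Changes of at least 1 on the log2 scale were found in 12 of the 27 genes and in 23 of the 30. Over all 125 genes with last-exon reads, the lines did not overlap in 50 with 4T1 higher and in 45 with 4T07 higher. Of these, 38 did not pass and 57 did. The count was 23 without 4T07 library 1, 21 without 4T07 library 2 and 87 without 4T1 library 1.

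Ccnd2, which encodes the G1 cyclin D2, was read 1614 and 1649 times in 4T1, and only 148 and 138 times in 4T07. Scaled to the list totals this is 618 ± 39.4 RPM against 49.1 ± 6.59 (SD, n = 2), a log2 difference of 3.66 ± 0.15 (SE), and the lines did not overlap (edgeR adjusted p = 3.93e-05).

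Dlk2, a transmembrane protein with EGF-like repeats, had 296 and 258 reads in 4T1 against 51 and 54 in 4T07, a 5.86-fold difference. Ddah1 breaks down a methylated arginine that inhibits nitric oxide synthase. Its last exon had 770 and 780 reads in 4T1 against 170 and 188 in 4T07, with a log2 difference of 2.26 ± 0.12 (SE, edgeR adjusted p = 0.000127). Ppp1r13b, a p53-binding protein, was low in both lines, with 38 and 41 reads against 16 and 14. Abcb10, a transporter of the inner mitochondrial membrane, had 201 and 181 reads in 4T1 against 76 and 81 in 4T07, or 2.69-fold. In each of these 5 genes both 4T1 libraries lay above both 4T07 libraries.

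In the other direction, Prickle2, a planar cell polarity protein, had no last-exon read in 4T1 and 11 and 12 in 4T07. Against a floor of 3 reads over the 2 libraries of 4T1, it was at least 6.93-fold lower in 4T1. Cadm1, a cell adhesion molecule of the immunoglobulin family, had 22 and 6 reads in 4T1 against 223 and 279 in 4T07, 15.9-fold higher in 4T07. The 4T1 libraries differed from each other here, at 8.8 and 2.15 RPM, by far less than from 4T07. Rin2, an exchange factor for Rab5 in endocytosis, had 39 and 68 reads in 4T1 against 717 and 856 in 4T07, a log2 difference of -3.73 ± 0.21 (SE, edgeR adjusted p = 0.000137).

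As3mt, an arsenite methyltransferase, had 19 and 10 reads in 4T1 against 92 and 99 in 4T07. Traf5, an adaptor of TNF receptors, had few reads in either line, 2 and 4 against 17 and 18. Trps1, a GATA-type transcriptional repressor, had 42 and 120 reads in 4T1 against 345 and 413 in 4T07, or 4.29-fold more in 4T07. The 2 libraries of 4T1 were spread for Trps1, at 16.8 and 42.9 RPM, and both stayed below 4T07 at 125 and 133. Among the genes beyond these 6, Angptl2, a secreted angiopoietin-like protein, had 663 and 637 reads in 4T1 against 2847 and 3234 in 4T07.

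A further 21 genes higher in 4T1 were 1.36-fold to 2.51-fold apart. Med24, a Mediator subunit, stood first with 1086 and 1023 reads against 444 and 486. Gtf2f2, a subunit of the general initiation factor TFIIF, had 538 and 666 reads against 308 and 312, and Nup155, a nuclear pore protein, 408 and 543 against 245 and 252. A second pore protein, Nup37, had 554 and 752 against 352 and 421. The antisense tables hold 543 and 511 last-exon reads of Med24 and 249 and 349 of Nup155 in 4T1, fewer than the tables of lines, which may count some reads of these genes more than once.

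The p53 gene Trp53 was low in both lines, with 46 and 51 reads in 4T1 and 28 and 34 in 4T07, a log2 difference of 0.79 ± 0.23 (SE, edgeR adjusted p = 0.0341). Mapk14, the p38 alpha kinase, had 382 and 420 against 285 and 318. In all of these genes the libraries of 4T1 lay above those of 4T07.

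The other 24 genes higher in 4T07 were 1.38-fold to 4.2-fold apart. Plcb3, a phospholipase C downstream of G protein-coupled receptors, had 296 and 346 reads in 4T1 against 1133 and 1201 in 4T07. Ucp2, an uncoupling protein of mitochondria, had 104 and 115 against 324 and 330. Ldhb, the B subunit of lactate dehydrogenase, had 23 and 31 against 69 and 74. The libraries of each line lay close together for these 3 genes, and the lines did not overlap.

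**Figure D1:**
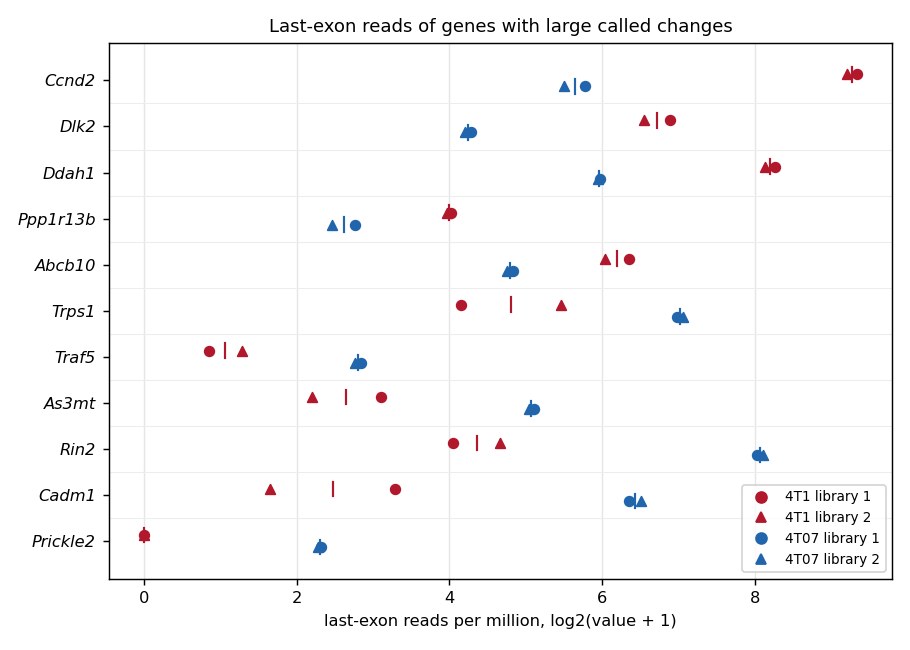
Last-exon RPM on a log2(value + 1) axis for 5 genes higher in 4T1 and the 6 genes with the largest called changes towards 4T07, ordered by size of change. Each point is 1 library and each short line the mean of the 2 plotted values of a line. Points of the lines do not overlap in any of the genes plotted. The 2 libraries of 4T1 lie farther apart than those of 4T07 for Trps1, As3mt, Rin2, Cadm1, Traf5, Dlk2, Abcb10 and Ddah1. For Ccnd2, Ppp1r13b and Prickle2 they do not.

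The gene lists showed members in both directions. They are small, and their shares are to be read beside the 47.1% called over all tested last exons (22.3% higher in 4T1 and 24.8% in 4T07). Of 5 measured genes of vesicle and Golgi transport, 2 were higher in 4T07 and none in 4T1. They were Uggt1, the glucosyltransferase that checks glycoprotein folding (515 and 671 reads against 1445 and 1738), and Slc35b2, which carries sulfate donor into the Golgi (180 and 129 against 342 and 413). Of 3 solute carriers and ABC transporters, Abcb10 and Slc25a13 were higher in 4T1 and Slc35b2, which is on both lists, in 4T07. Slc25a13, the mitochondrial aspartate-glutamate carrier, had 275 and 338 reads against 196 and 255, only 1.51-fold apart.

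Of 3 cell cycle genes, Ccnd2 was higher in 4T1 and Tpx2, a spindle assembly factor, in 4T07. Tpx2 had 255 and 340 reads against 421 and 484, a 1.38-fold difference. The other member, cyclin B1 (Ccnb1), had 497 and 538 reads against 435 and 492 and did not pass (edgeR adjusted p = 0.0593). Of 3 splicing genes, the helicase Dhx40 (50 and 101 reads against 161 and 194) and Snrnp35, a protein of the minor spliceosome (66 and 77 against 122 and 117), were higher in 4T07. The Snrnp35 call was at the threshold (edgeR adjusted p = 0.0499) and was lost in DESeq2 (0.0837) and without either 4T07 library (0.303 and 0.165). Sfpq, an RNA-binding splicing factor, had 1746 and 2533 reads against 1795 and 2210 and did not pass. The antisense tables hold 876 and 1280 of its reads in 4T1, so some may be counted more than once.

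Of 4 adhesion and cytoskeleton genes, 1 was called. Arhgef2, a microtubule-bound activator of RhoA, had 757 and 790 reads in 4T1 against 1356 and 1570 in 4T07. Hip1, Ngef and Tpm1 did not pass, and the tropomyosin Tpm1 had nearly equal means of 665 and 663 RPM. Lists with 1 measured gene each gave Spint2 (963 and 965 reads against 730 and 849) higher in 4T1, and Trps1 and Prickle2 higher in 4T07. Exd2, a nuclease of DNA repair, and Wdr33, a subunit of the complex that reads the polyadenylation signal, did not pass. No ubiquitin list gene was tested for last exons. Of the 57 called genes, 20 stayed called with each library left out in turn. Among the genes named so far, Ppp1r13b, Prickle2, Traf5, Slc35b2, Slc25a13, Tpx2 and Dhx40 were lost without either 4T07 library. So were Arhgef2, Spint2, Nup37, Trp53, Mapk14, Ldhb and, as given above, Snrnp35. Trp53 was also lost without 4T1 library 2, and Nup155 without 4T07 library 2. Of genes named further on, the last-exon calls of Auh, Vps4a, Tsnax_1, Sbno2, Zfp444 and Wfdc2 were lost without either 4T07 library. That of Ptges3 was lost without 4T07 library 2. Some called genes that are not named were lost as well.

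At the sites themselves, reads given in the tables for both lines were tested at 80 of the 125 sites; the other 45 had fewer than 10 reads over the 4 libraries. Of the 80 sites, 26 differed, or 32.5%, with 14 higher in 4T1 (17.5%) and 12 in 4T07 (15.0%) (edgeR, adjusted p under 0.05). Without 4T07 library 2 the count was 17, and DESeq2 called 8, with no adjusted p for 5 of the 26. In 14 of the 26 the last exon of the gene changed in the same direction, in 2 in the opposite direction, and in 10 it was not called or not tested. Usage was called at 7 of the 26 sites and not at the other 19.

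Ccnd2 was the clearest case of a site that moved with its gene. Its site (mm9 chromosome 6, 127098309 to 127098896, minus strand) had 43 and 49 reads in 4T1 against 4 and 3 in 4T07. The site differed by 3.81 ± 0.51 (log2, SE) and the last exon by 3.66. Usage was 2.74% ± 0.206 in 4T1 and 2.38% ± 0.356 in 4T07 (SD, n = 2). The usage difference was 0.16 ± 0.37 on the log2 scale (SE, edgeR adjusted p = 0.839).

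The 2 neighbouring sites of Trps1 gave the same picture in the other line. The larger one (chromosome 15, 50554556 to 50556845, minus strand) had 8 and 43 reads in 4T1 against 132 and 145 in 4T07, while usage was 16.0% and 26.4% against 27.7% and 26.0%. The smaller one had 1 and 6 reads against 18 and 13, and its call was lost without 4T1 library 1 and also without 4T07 library 1. Usage of both sites overlapped between the lines. At Angptl2 the site had 2 and 5 reads in 4T1 against 15 and 15 in 4T07, with a usage of 0.54% against 0.493%. Mlec, a lectin of the endoplasmic reticulum, had 14 and 12 site reads against 47 and 48, and Med24 had 59 and 89 against 17 and 29.

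The other 13 sites with called reads and uncalled usage had 38 reads or fewer in every library. Higher in 4T07 were Usp21, a deubiquitinating enzyme (2 and 3 reads against 8 and 15), Ucp2 (3 and 1 against 10 and 11), the zinc finger gene Zfp444 (2 and 2 against 10 and 7) and Mctp1 (17 and 9 against 23 and 38), with AI506816 and Snrnp35, described further on. Mctp1 had 0 last-exon reads in 3 libraries and 3 in 4T07 library 1, so nearly all of its counted reads ended in the intron in both lines. The Mctp1 call was lost without 4T1 library 2 (edgeR adjusted p = 0.333), without 4T07 library 2 (0.308) and in DESeq2 (0.156), that of Usp21 without 4T07 library 2, that of Ucp2 without 4T1 library 2, and that of Zfp444 without either 4T1 library or 4T07 library 1.

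Sites higher in 4T1 included Atp11a, a phospholipid flippase (27 and 23 reads against 13 and 14), and Mgll, monoacylglycerol lipase (19 and 26 against 9 and 8). Fewer reads lay behind Vps4a, an ATPase of ESCRT disassembly (5 and 9 against 1 and 2), Dpf2 (7 and 4 against 0 and 2), Ptges3 (6 and 6 against 1 and 0) and the gene listed as Tsnax_1 (8 and 5 against 3 and 0). At Vps4a, Ptges3 and Tsnax_1 the last exon was higher in 4T1 as well. The Atp11a call was lost in 6 of 8 alternatives, among them leaving out 4T1 library 1 or either 4T07 library (edgeR adjusted p from 0.126 to 0.23). Without 4T07 library 1 the calls of Vps4a and Dpf2 were lost, and without library 2 those of Mgll, Ptges3 and Tsnax_1.

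**Figure D2:**
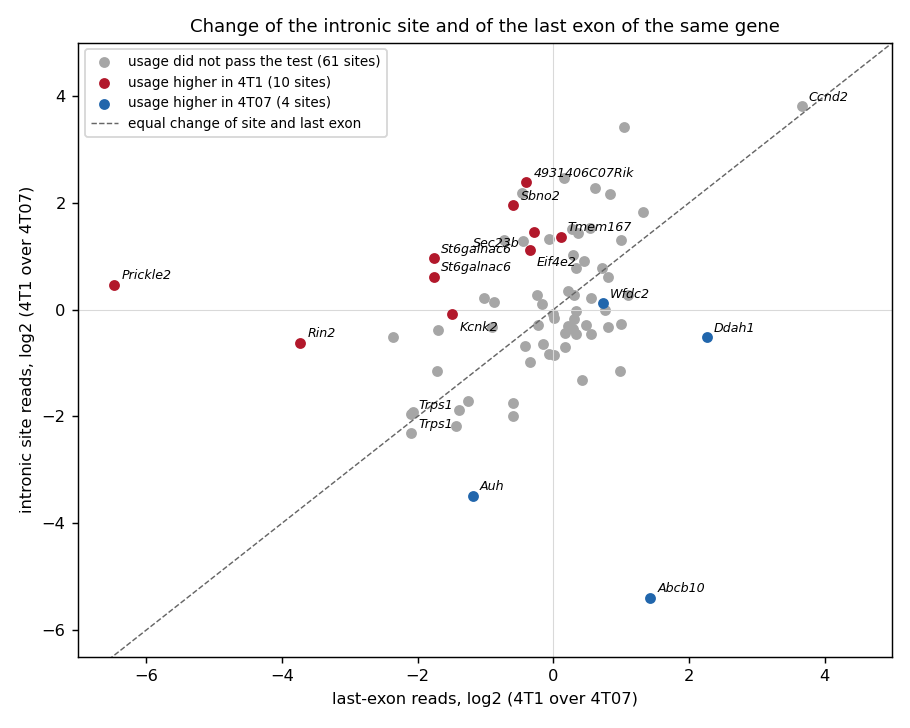
Fitted log2 difference (4T1 over 4T07) of the intronic site against that of the gene's last exon, for the 75 sites with both values. Points on the dashed line changed equally. Ccnd2 and Trps1 lie close to the line, while Abcb10 and Ddah1 lie below it and Prickle2 and Rin2 above it; the value of Prickle2 rests on a last exon with 0 reads in 4T1.

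Usage from the table reads was tested at 117 sites and differed at 14 sites in 13 genes, or 12% (edgeR, term per library, adjusted p under 0.05). It was higher in 4T1 at 10 sites (8.55%) and in 4T07 at 4 (3.42%). The median absolute difference over the 117 sites was 1.57 percentage points, and 84 sites differed by under 5 points. At the 14 sites it ran from 1.08 to 36.6 points. The count was 7 without 4T07 library 1 and 6 without 4T07 library 2. These 14 sites were named after their values were seen, since the planned test on peak-list reads, described last, called none.

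At 7 of the 14 sites the site reads differed, and at the other 7 they did not pass while the last exon changed in the direction opposite to usage. At Abcb10, and at Sbno2 described below, the site and the last exon were called in opposite directions. The Abcb10 site (chromosome 8, 126481583 to 126481819, minus strand) had 1 and 0 reads in 4T1 against 26 and 31 in 4T07. Usage was 0.495% and 0% in 4T1 against 25.5% and 27.7% in 4T07, so the lines were far apart (edgeR adjusted p = 5.48e-05). The last exon was 2.69-fold higher in 4T1, as given above. In 67NR the site was used at 12.8% and 15.3%, and in 168FARN at 0.962% and 2.19%.

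Ddah1 had the largest difference in points. Its site (chromosome 3, 145541953 to 145542521, plus strand) had 111 and 105 reads in 4T1 against 148 and 196 in 4T07, which did not pass (log2 -0.51 ± 0.25, SE, edgeR adjusted p = 0.0962). Usage was 12.6% and 11.9% in 4T1 and 46.5% and 51.0% in 4T07, a log2 difference of -2.78 ± 0.21 (SE, edgeR adjusted p = 7.74e-07). The higher share in 4T07 came with a last exon that was 4.79-fold lower there. In both non-metastatic lines usage lay between 4T1 and 4T07, at 18.8% and 17.2% in 67NR and at 26.4% and 28.9% in 168FARN.

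Auh encodes a mitochondrial enzyme of leucine breakdown that also binds AU-rich RNA. Its site (chromosome 13, 53007942 to 53008435, minus strand) had 4 and 3 reads in 4T1 against 42 and 47 in 4T07. The last exon was also higher in 4T07 (34 and 39 reads against 86 and 99), and usage was higher too, at 32.8% and 32.2% against 10.5% and 7.14% (edgeR adjusted p = 0.0378). The fourth gene, Wfdc2, a secreted protease-inhibitor-like protein, had 238 and 224 site reads against 193 and 283. Its usage was 2.09% and 2.09% in 4T1 against 2.67% and 3.67% in 4T07, the smallest called difference. The tables of the antisense comparison hold 5574 last-exon reads of Wfdc2 for 4T1 library 1 while 11148 are given in the tables of lines, so its reads, like those of Med24, may be counted more than once; whether equally in both lines was not tested.

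Prickle2 and Rin2 were the counterparts of Ddah1. The site of Prickle2 (chromosome 6, 92515396 to 92515897, minus strand) had 27 and 33 reads in 4T1 against 18 and 30 in 4T07. With no last-exon read in 4T1, usage was 100% in both libraries there and 62.1% and 71.4% in 4T07 (edgeR adjusted p = 0.0147). In 4T1 every Prickle2 read counted here therefore ended in the intron. At Rin2 (chromosome 2, 145682910 to 145683136, plus strand) 6 and 8 site reads stood against 9 and 15, while usage was 13.3% and 10.5% in 4T1 and 1.24% and 1.72% in 4T07 (edgeR adjusted p = 0.00272).

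Kcnk2, a background potassium channel, had 146 and 228 site reads in 4T1 against 185 and 255 in 4T07, and usage of 83.9% and 84.1% against 64.9% and 68.0%. Most counted Kcnk2 reads ended in the intron in both lines. St6galnac6, a sialyltransferase, had 2 sites of few reads, 4 and 5 against 3 and 2 upstream and 15 and 6 against 5 and 10 downstream. Upstream usage was 1.87% and 2.39% in 4T1 against 0.418% and 0.236%, and downstream it was 6.67% and 2.86% against 0.695% and 1.17%. The last exon of St6galnac6 was 3.39-fold higher in 4T07, which both sites share.

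At 5 sites the site reads themselves were higher in 4T1 with usage. Eif4e2, a cap-binding protein that represses translation, had the most reads: 882 and 909 in 4T1 against 410 and 505 in 4T07 (chromosome 1, 89124237 to 89124850, plus strand). Usage was 92.6% and 90.4% against 76.9% and 82.1% (edgeR adjusted p = 0.000994). Its last exon had 70 and 97 reads against 123 and 110 and did not pass. Sbno2, a transcriptional co-regulator, had 35 and 50 site reads against 10 and 14, and its usage was 29.9% and 35.7% in 4T1 and 6.71% and 8.64% in 4T07 (edgeR adjusted p = 0.00272). The Sbno2 last exon was called in the other direction, with 82 and 90 reads in 4T1 against 139 and 148 in 4T07.

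Tmem167 and Sec23b act early in the secretory pathway, and Sec23b is part of the COPII coat. The Tmem167 site had 89 and 102 reads against 30 and 52, on a last exon at 153 and 142 RPM, and usage was 19.6% and 18.5% against 7.59% and 9.9%. At Sec23b usage was low in both lines, 4.44% and 6.77% against 1.53% and 1.92%, and 39.0% and 37.1% in 67NR. The site of 4931406C07Rik had 9 and 11 reads against 1 and 3, and its usage was 14.3% and 12.6% against 1.3% and 2.54%. Of 5 vesicle and Golgi sites tested for usage, in 4 genes, these 2 were higher in 4T1 and none in 4T07. Over all tested sites the shares were 8.55% and 3.42%. The calls of Auh, Kcnk2, Tmem167, Sec23b, 4931406C07Rik and both St6galnac6 sites were lost without either 4T07 library, that of Sbno2 without library 1 and that of Wfdc2 without library 2 (edgeR adjusted p from 0.0572 to 0.428). Auh and Sec23b also lost theirs without 4T1 library 2, the upstream St6galnac6 site without either 4T1 library and the downstream one without library 1.

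**Figure D3:**
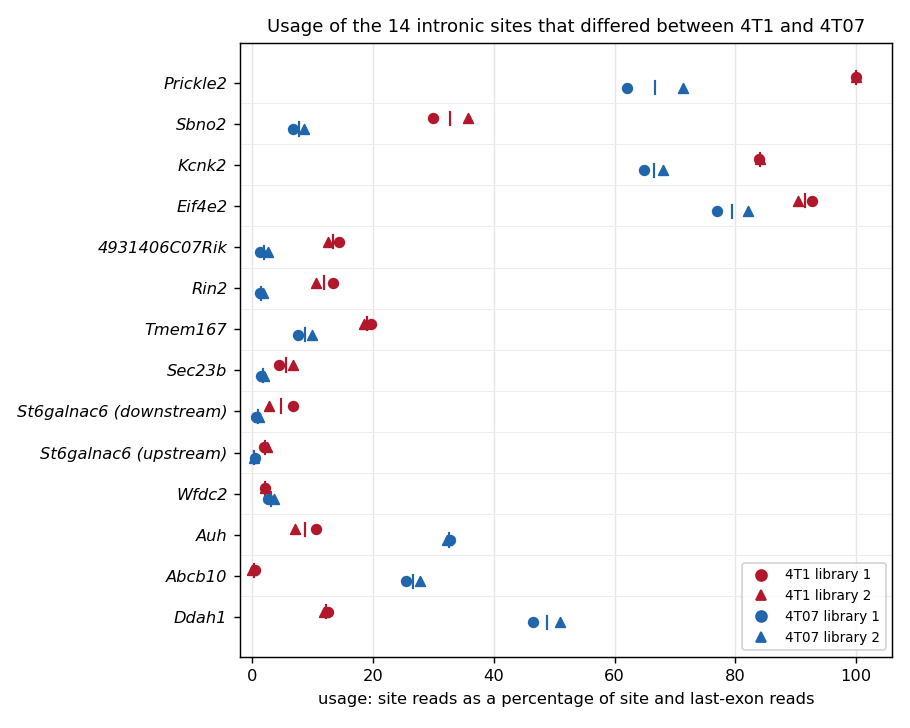
Usage in percent for the 14 sites that differed, ordered by the difference in points, with 1 point per library and a short line at the mean of each line. The libraries of the lines do not overlap at any of the 14 sites; the widest gaps are at Ddah1, Prickle2, Abcb10, Sbno2 and Auh.

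The direction in the authors' deposited tables was set beside these results. At 13 of the 125 sites a table with 4T1 and a table with 4T07 listed opposite directions, and at 1 of the 13, Ddah1, this was against the same non-metastatic line. In the authors' deposited table, usage of the Ddah1 site was -1.31 (log2) in 4T1 and, in the other, 1.24 in 4T07, both against 168FARN. Usage between 4T1 and 4T07 was called at 10 of the 13, and at 4 of the 104 tested sites listed in one direction (Tmem167, Sec23b, Wfdc2 and 4931406C07Rik). These comparisons share libraries with the test, so the 2 counts are not independent. The 3 sites of the 13 that were not called were in Ptges3, As3mt and Nav2.

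The 13 sites listed in all 4 comparisons of lines gave no call of usage between 4T1 and 4T07. The median absolute difference was 2.15 points, and 8 of the 13 differed by under 5 points. In 9 of them the metastatic lines were both below both non-metastatic lines. The sites were chosen by their listing in these comparisons of the same libraries. Their separation from the non-metastatic lines, in either direction, therefore follows from the choice. At Spint2, usage was 0.207% and 0.31% in 4T1 and 0.273% and 0.235% in 4T07, against 66.7% and 100% in 67NR. The 67NR values rest on few reads, 10 and 10 at the site and 5 and 0 in the last exon. At Slc25a13 usage was 0.722% and 0% in 4T1 against 0% and 0.391% in 4T07. At Dhx40 it was 5.66% and 0% against 0% and 1.52%. Both rest on 3 or fewer site reads per library of 4T1 and 4T07.

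Exd2, Tpx2, Hip1 and Tpm1 had 0 to 5, or in Tpm1 16 to 22, site reads per library, and usage of at most 4.48%. Gpr126, an adhesion receptor, was used at 11.4% and 3.49% in 4T1 and 3.28% and 1.94% in 4T07. Camk1d, a calmodulin-dependent kinase, was spread in 4T1, at 57.9% and 27.1%, against 22.4% and 21.4%. Its site had 33 and 19 reads against 39 and 36, and its last exon was 3.25-fold higher in 4T07.

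The other 4 sites were used more in both metastatic lines than in either non-metastatic line. At 3 of them site reads were higher in 4T07 than in 4T1: the larger site of Trps1 given above, AI506816 and Snrnp35. The site-read calls of AI506816 and Snrnp35 were lost without 4T07 library 2. That of Trps1 was lost in 1 of 8 alternatives. AI506816, a noncoding gene, had 9 and 10 site reads in 4T1 against 20 and 33 in 4T07. Usage was 13.2% and 11.9% against 29.0% and 35.5%, and did not pass (edgeR adjusted p = 0.0683). Snrnp35 had 4 and 5 reads against 14 and 20, with usage of 5.71% and 6.1% against 10.3% and 14.6% (edgeR adjusted p = 0.327). Twist2 had 4 and 7 site reads against 2 and 1, on last exons of 0 to 2 reads, and its site reads did not pass (edgeR adjusted p = 0.0595).

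**Figure D4:**
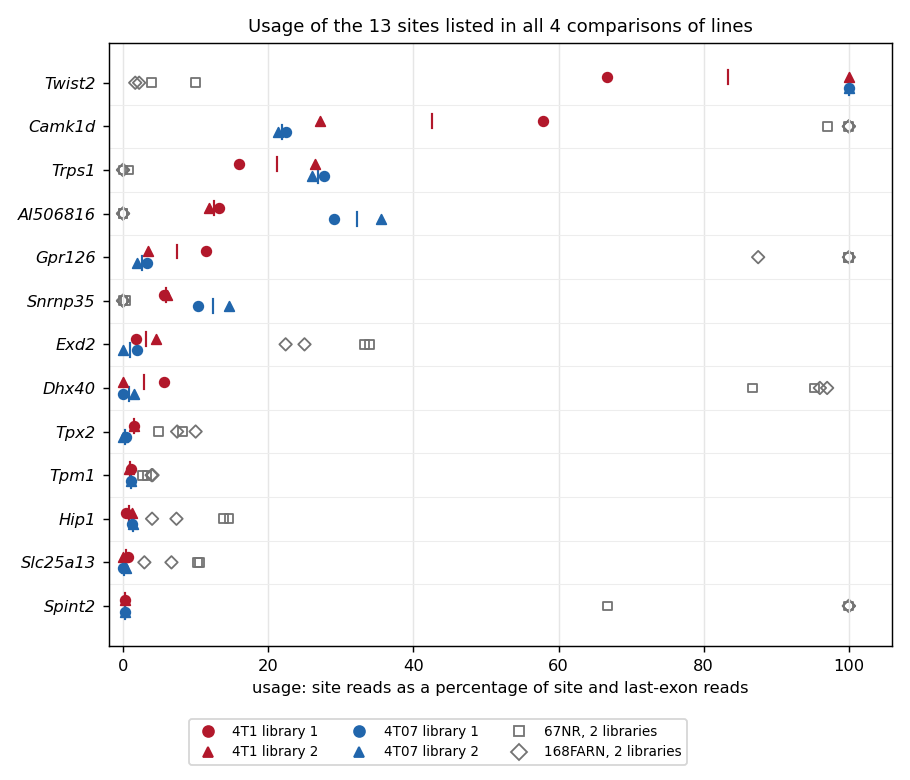
Usage in percent at the 13 sites listed in all 4 comparisons, with filled points for the libraries of 4T1 and 4T07, short lines for their means and open symbols for 67NR and 168FARN. The filled points lie near each other and apart from the open ones at most sites. Their distance from the open points follows from how the sites were chosen. AI506816 and Snrnp35 show 4T07 above 4T1.

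Reads per site were also taken from the peak lists, which give a value for both lines at 516 of the 520 sites (the lists of these 4 libraries hold no X chromosome, where the other 4 lie). The lists were incomplete. Where a table gives the reads of the same library, the list never held more, held the same number at 69.06% to 72.38% of sites, and held less than 0.5 of them at 15.3% to 19.67% of sites with 10 or more table reads. A low list value can therefore be a missing peak. At 56 sites none of the 4 lists held a read.

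**Figure D5:**
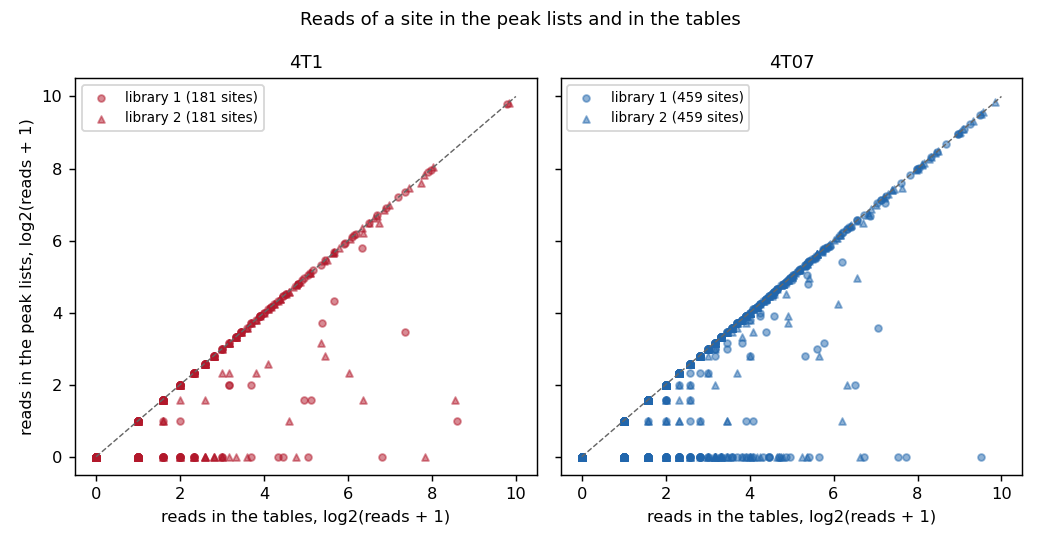
Reads of a site in the peak lists against reads in the tables, both as log2(reads + 1), with 1 point per site and library and the dashed line at equality. Points on the line are sites where both sources agree; points below it, down to 0, are sites whose list holds part or none of the reads.

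Over all 25526 sites and other merged peaks tested, the peak lists gave 1454 calls, or 5.7% (edgeR, adjusted p under 0.05). In 4T1 2.51% of these features were higher and in 4T07 3.18%. Of 323 sites tested, 15 were called, or 4.64%, 9 higher in 4T1 and 6 in 4T07, a share near that over all features. By listing, 4 of 69 sites listed for both lines, 1 of 35 listed for 4T1 alone and 10 of 219 listed for 4T07 alone were called. With either 4T07 library left out no site was called. Table reads of both lines were at hand for 4 of the 15. For Eif4e2, Auh and Ccnd2 they were called in the same direction. For Adcy9, an adenylyl cyclase, they were not: the list held 1 and 2 reads in 4T1 where the table gave 389 and 371, against 353 and 341 in 4T07.

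For the other 11 sites the tables of lines gave reads of 1 line only. Higher in 4T1 were Csf1, the macrophage growth factor (164 and 179 list reads against 9 and 14), and Cpeb3, which binds cytoplasmic polyadenylation elements (67 and 80 against 3 and 1). Mmd (261 and 242 against 82 and 70), Gart, an enzyme of purine synthesis (239 and 273 against 79 and 83), and Ece2, an endothelin-converting enzyme (236 and 212 against 73 and 85), followed. Tulp4 had 268 and 283 against 102 and 103. For Uchl5, a deubiquitinating enzyme of the proteasome, the list gave 168 and 141 against 6 and 6, but the table gave 39 and 49 reads for 4T07. The table reads of 4T07 equalled the list at Csf1, Mmd, Gart and Ece2, so the low values there were not missing peaks.

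Higher in 4T07 were Mkks, a chaperonin-like protein, with no list read in 4T1 and 254 and 274 in 4T07, and Speg, a muscle kinase gene, with 3 and 6 against 224 and 276. Espn, an actin-bundling protein, had 1 and 1 against 24 and 39, and Stag1, a cohesin subunit, 50 and 43 against 151 and 167. With a floor of 3 reads over its libraries, Mkks was at least 159-fold lower in the 4T1 lists, the same pattern that the tables contradict for Adcy9. For Mkks, Speg and Espn no table gave 4T1 reads. For Stag1 an overlapping interval of the antisense tables held 50 and 43 reads in 4T1, as the list did.

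Usage computed from list reads and last exons was called at none of 126 sites (0.0%), where 13 had an unadjusted p under 0.05 in edgeR and DESeq2 called 13. The spread between libraries of a line, as a biological coefficient of variation, was 68.5% in the fit of list reads, over all 25526 features. It was 11.5% in the fit of table reads, over 80 sites, and 13.2% for 121 last exons. These sets of features are unlike, so the values do not compare the same sites. In the fits of usage it was 49.7% with list reads, at 126 sites, and 10.2% with table reads, at 117.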

How the data were processed

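Polyadenylated 3' ends were sequenced, per the labels' protocols, from 5 µg of total RNA with 50-nt reads. The submitters' processing notes name build mm9 and, without their role, DESeq2 1.4.5, Bowtie2 2.2.5, bedtools 2.17.0 and SAMtools 1.1. Peak lists were deposited as read counts per peak and library. The authors' tables hold, per the file headers, normalized signal for the site and the last exon, log2 fold changes and p-values, only for sites whose adjusted p does not exceed 0.1. Because the signal steps are whole reads (tolerance 0.1 read), reads were recovered from it. Site reads are sums of list peaks on the same strand overlapping by at least 1 bp (bedtools 2.31.1).

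Counts were tested with edgeR 4.0.16 (R 4.3.3; quasi-likelihood, offsets from list totals, at least 10 reads over 4 libraries, adjusted p under 0.05). Usage was tested as the site-by-line term in a model with a term per library. Models were also run on simulated data. There list reads were given the spread of last exons (biological coefficient of variation 13.2%, against 68.5% in the list fit). List usage was given that of table usage (10.2% against 49.7%). These runs therefore cannot show how the fits on list reads perform. DESeq2 1.42.0, TMM, no filter, other overlaps, a replicate block and leaving out libraries were alternatives. The members, gene lists and rules were chosen with earlier results of these data known. Last exons had been planned from all tables. The antisense tables were left out because 27 of 43 genes had other 4T1 last-exon reads there, 9 of them lower by a factor of 2 or 3 within 1%; with them, 79 of 191 genes were called. Of the fits on table reads, the one of site reads alone was added after seeing the data. Named were, per direction, up to 10 sites by list reads, 6 last exons and 8 sites by usage with the largest called changes and no overlap, the called list members, and the sites of all 4 comparisons; some items are not reported here. No label says whether same-numbered libraries of the lines share a batch. The correlation of their deviations was -0.012 for peaks and -0.15 for last exons, which cannot settle it.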

Additional observations from a re-analysis of the deposited data

Results flagged for a closer look

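Some sites were listed for 4T1 and for 4T07 against the same non-metastatic line. At 6 of them usage also differed between 4T1 and 4T07 on the log2 scale in edgeR. The sizes of the effects against that line were not tested against each other. At Ddah1 the effects against 168FARN ran in opposite directions, with a difference of -2.78 (4T1 minus 4T07, edgeR adjusted p = 7.74e-07). In the authors' deposited tables against 67NR, both lines were raised at Kcnk2, where they differed by 1.4, and at Tmem167, by 1.27. Both were lowered against 67NR at Sec23b, with a difference of 1.73, and at 4931406C07Rik, with 2.81. At Wfdc2 both were lowered against 168FARN by nearly the same size, -1.69 (log2) in 4T1 and -1.62 in 4T07. The direct difference there was -0.61. The 168FARN libraries held only 1 and 2 site reads and 4 and 6 last-exon reads of Wfdc2. The adjusted p-values of the 5 sites after Ddah1 ran from 0.00598 to 0.0456.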

How the results depend on the processing

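Calls from 2 libraries per line depended most on the 4T07 libraries. Leaving out 1 library gave 0 to 22 called sites by list reads, 21 to 87 last exons, 0 to 1 sites by list usage, 17 to 22 sites by table reads and 6 to 18 by table usage, against 15, 57, 0, 26 and 14. List reads gave 47 called sites with no filter, 38 with edgeR's filterByExpr, 44 in DESeq2, 36 with 8 libraries in the fit and 0 with a replicate block, where 54 had an unadjusted p under 0.05. Without 4T07 library 1 or 2, 53 and 50 did. Usage from lists gave 9 calls with no term per library, 13 in DESeq2 and 14 with table reads. Table reads gave 8 calls in DESeq2. Adcy9 turned to 0.28 (log2) with table reads in place of list reads. The replicate block gave 58 last exons, 24 sites by table reads, 11 by table usage and 0 by list usage (7 with an unadjusted p under 0.05 in edgeR); pairing the libraries crosswise gave 39 last exons. For these changes beyond Adcy9, whose list lacks reads the tables hold, the cause was not tested. Of the 14 usage sites, Eif4e2, Rin2, Ddah1, Prickle2 and Abcb10 stayed called in the 8 alternatives run for each.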
